A study of Mus musculus with 98 samples.

Results

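Interleukin 1 and interleukin 18 reach innate lymphoid cells (ILCs), lymphocytes that carry no rearranged antigen receptor, through a common set of signalling proteins, and the transcripts of that set are described here cell by cell. The 8 genes were chosen by name: the receptor chains Il1r1, Il1rap, Il18r1 and Il18rap, the adaptor Myd88, the kinases Irak4 and Irak1, and the ubiquitin ligase Traf6. Each had 1 row among the 23420 gene symbols of the 2 deposited TPM tables (a level per transcript length that sums to 1e+06 in every column).

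As background, each cytokine first binds its own chain, Il1r1 or Il18r1, and the pair then recruits an accessory chain, Il1rap for interleukin 1 and Il18rap for interleukin 18, without which no signal is passed on. The joined receptor tails draw in Myd88, which gathers Irak4 and then Irak1 into a complex called the Myddosome. Irak1 engages Traf6, whose ubiquitin chains activate the TAK1 and IKK kinase complexes and so NF-kappa B and MAP kinases. In the gut, interleukin 1 is known to raise interleukin 22 and GM-CSF output of type 3 ILCs (ILC3s), and interleukin 18 is known mostly for interferon gamma output of type 1 cells.

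R9-ILCs were mouse ILCs derived from pluripotent stem cells. They had been transplanted into Rag2-/-Il2rg-/- mice and taken from the recipients' intestine after 3 weeks as CD45.2+GFP+Lin-CD127+ cells, with C57BL/6 given as the strain. WT-ILCs were CD45.2+Lin-CD127+ cells that came, without a GFP gate, out of the gut of 8-week-old wild-type mice (C57BL/6, CD45.2 strain). Both were sorted as single cells, and full-length cDNA was amplified from polyadenylated RNA. R9 titles formed 2 series, with the ending 1 (35 cells) and without an ending (32 cells), and the labels do not say what the ending stands for. The 31 WT columns stood for 22 cells, since columns with closely related values were averaged. No label names an animal, so each group was 1 sample: there is no replicate check and no test, SDs are spreads over cells, and intervals are exact Clopper-Pearson 95% intervals that cover counting error only.

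The labelled cell type was set against marker lists. Id2 and Il7r, which all ILCs use, were at 1 TPM or more in every cell of all 3 sets. Both groups were sorted on CD127, the Il7r protein. Il23r, an interleukin 23 receptor chain of ILC3s, was seen in 33 of the 35 R9 cells of ending 1, 27 of the 32 R9 cells that lack an ending and 20 of the 22 WT cells. In the same order, Thy1 was in 71.4%, 15.6% and 31.8% of cells and Ptprc in 54.3%, 100% and 68.2%. Averaged over a list, ILC3 markers were in 82.3%, 81.6% and 79.5% of cells. That list includes Il1r1, a member described here, and the cytokine genes Il22 and Lta. Type 1 and natural killer cell markers were in 2.5%, 11.7% and 9.09%, and type 2 ILC markers in 10.6%, 19.2% and 17.5% (Gata3 in 28.6%, 68.8% and 22.7%). In the type 2 list Arg1 was seen most in WT (42.9%, 53.1% and 95.5%), and Klrg1 was in 2.86%, 12.5% and 4.55%. Il1rl1, Il13, Il5 and Areg reached 1 TPM in no cell. Epithelial transcripts (10 of 10 markers seen in each set) had a median summed level of 38.2 TPM in R9 cells of ending 1 (0 to 12110), 133 TPM in R9 cells without an ending (0 to 122317) and 5233 TPM in WT cells (15.2 to 108151). By list average they were in 39.7%, 15.9% and 50% of cells, so the R9 series changed order with the measure. Mast cell and basophil transcripts had medians of 0, 1349 and 0 TPM (ranges 0 to 615.9, 61.1 to 4568 and 0 to 3.91 TPM; 3, 4 and 1 of 8 markers seen, Mcpt2 and Ms4a2 at 0 throughout), with Tpsb2, a mast cell tryptase, in 31 of the 32 R9 cells that lack an ending and in no cell of the other sets. Macrophage and dendritic cell transcripts had medians of 0, 444.5 and 1.49 TPM (6, 7 and 7 of 9 markers seen). By list average T cell markers were in 15.4%, 8.1% and 16.4% of cells, with Cd3g seen most (71.4%, 28.1% and 50%). B and plasma cell markers were in 4%, 2.5% and 7.27%, and neutrophil markers in 7.62%, 2.08% and 1.52%. The part of transcripts of these other cell types in the results that follow was not tested. Medians of 2429, 2082.5 and 2092.5 genes reached 1 TPM, and Gapdh, which every cell uses, was listed at 0 in 1, 24 and 9 cells, so a listed 0 can be a failed estimate. More than 4000 genes were at 1 TPM in 4, 0 and 2 cells.

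The low range of the scale was filled unequally. In R9 cells of ending 1, 51.3% of all values above 0 lay under 10 TPM, against 10.9% for the R9 cells without an ending and 45.2% in WT cells. Values under 1 TPM made up 23.8%, 0.25% and 16.6% in the same order. A share of cells at 1 TPM therefore includes a range of values in R9 cells of ending 1 and in WT cells that is nearly empty in R9 cells without an ending, and shares are given at 1 TPM, at 10 TPM and, where it matters, at 100 TPM.

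Myd88 was the member that differed most between the sets. Its mean was 309.4 ± 474.4 TPM in R9 cells of ending 1, 27.2 ± 54.4 TPM in R9 cells without an ending and 3.43 ± 6.45 TPM in WT cells (SD over cells). Il1r1 and Il18r1, the chains that bind the cytokines, were detected in all 3 sets at means within a few fold of each other, whereas Il1rap, Il18rap and Traf6 were listed at 0 in every WT cell. Over all 67 R9 cells these last 3 were at 1 TPM in 9, 7 and 7, and WT had only 22 cells. Of 10691 genes with a mean of 1 TPM in either group, 9453 were above 0 in both, as were 5 of the 8 members. The SD over cells was larger than the mean for every member in every set where it was above 0.

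The sequences in front of 4 of these genes are shown as examples of the 3 patterns: Myd88 differed most, Il1r1 and Il18r1 were seen in all sets, and Il1rap was at 0 in WT, as were Il18rap and Traf6, which are not shown. Each is the 250 bases before the most upstream RefSeq start on GRCm38.p6, on the strand of the gene: Myd88 at chr9:119340019-119340268 (minus strand), Il1r1 at chr1:40224830-40225079, Il18r1 at chr1:40465302-40465551 and Il1rap at chr16:26581455-26581704 (plus strand). Capitals mark matches, on either strand, to GGGNNNNNCC for NF-kappa B, TGTGGT for RUNX, AGGTCA for the nuclear receptor half-site, GGGCGG for the GC box, TATAAA for the TATA box, TGACTCA for AP-1, CCGGAAG for ETS factors and GAAANNGAAA for the interferon-stimulated element, and matches that overlap run together.
Myd88: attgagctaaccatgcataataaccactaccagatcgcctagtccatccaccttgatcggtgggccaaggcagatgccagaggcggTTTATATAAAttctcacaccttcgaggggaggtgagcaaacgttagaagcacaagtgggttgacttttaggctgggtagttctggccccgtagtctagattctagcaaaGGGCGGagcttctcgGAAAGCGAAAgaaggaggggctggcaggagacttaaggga
Il1r1: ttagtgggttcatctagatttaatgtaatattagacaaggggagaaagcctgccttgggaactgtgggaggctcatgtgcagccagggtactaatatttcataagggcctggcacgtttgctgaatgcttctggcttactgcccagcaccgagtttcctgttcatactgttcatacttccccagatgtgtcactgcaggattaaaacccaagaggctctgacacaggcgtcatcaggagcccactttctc
Il18r1: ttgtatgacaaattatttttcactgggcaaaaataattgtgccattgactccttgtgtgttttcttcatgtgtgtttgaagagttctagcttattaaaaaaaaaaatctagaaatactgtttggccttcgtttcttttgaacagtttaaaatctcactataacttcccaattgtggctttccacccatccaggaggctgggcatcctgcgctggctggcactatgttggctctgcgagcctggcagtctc
Il1rap: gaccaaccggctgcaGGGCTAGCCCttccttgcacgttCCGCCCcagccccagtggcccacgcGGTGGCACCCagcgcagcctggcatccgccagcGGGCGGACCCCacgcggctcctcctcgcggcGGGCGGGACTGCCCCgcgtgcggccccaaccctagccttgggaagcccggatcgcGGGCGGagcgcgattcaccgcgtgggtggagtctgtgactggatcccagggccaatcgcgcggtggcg

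The Myd88 window held 4 matches: TATAAA once on each strand at -160 and -164, overlapping, GGGCGG at -55 and GAAANNGAAA at -40, counted from the start. Among 32851 windows of the same length, 12.4% held TATAAA, 32.7% held GGGCGG and 2.98% held GAAANNGAAA. The windows of Il1r1 and Il18r1 held none of the 8 motifs and were poor in CpG, with 3 each against a median of 6. The Il1rap window was 74.4% G and C, against a median of 52.4%, and held 30 CpG and 13 matches to GGGCGG or GGGNNNNNCC, some of which overlap, the last found in 45.8% of windows. It does not stand for the other genes at 0 in WT. The Il18rap window was 42% G and C with 4 CpG and 0 matches. That of Traf6 was 56.4% G and C with 13 CpG and 5 matches. The RefSeq start of Myd88 lies inside the gene's span in the GENCODE annotation given further on, so by that annotation its window falls within the gene. A match is a run of letters and not a shown binding site.

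Il1r1, the chain that binds interleukin 1, lies on chromosome 1 (GRCm38, 40225080 to 40317257, plus strand). Its lowest, median and highest levels were 0, 0.42 and 578.0 TPM in R9 cells of ending 1, 0, 0 and 225.6 TPM in R9 cells without an ending, and 0, 0.57 and 393.8 TPM in WT cells. It was at or above 1 TPM in 14 of the 35 R9 cells of ending 1 (40%, interval 23.9 to 57.9), 14 of 32 R9 cells lacking an ending (43.8%, 26.4 to 62.3) and 10 of 22 WT cells (45.5%, 24.4 to 67.8). The 3 sets overlapped over nearly their whole range and the 3 intervals overlapped. At 10 TPM the counts were 7, 13 and 6 cells, so 7 of the 14 positive cells of ending 1 lay between 1 and 10 TPM and 1 of the 14 without an ending did. Means were 44.7 ± 125.8 TPM, 25.02 ± 50.9 TPM and 34.1 ± 90.5 TPM in the same order, and the highest cell held 36.9%, 28.2% and 52.5% of each sum.

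Il18r1, the chain that binds interleukin 18, lies further along the same chromosome (40465552 to 40500854). Its lowest, median and highest levels were 0, 0.58 and 1339 TPM in R9 cells of ending 1, 0, 0 and 139.9 TPM in R9 cells without an ending, and 0, 1.86 and 564.4 TPM in WT cells. The 4 highest R9 cells of ending 1, at 461.2 TPM or more, stood above every R9 cell without an ending. It reached 1 TPM in 13 of 35 (37.1%, 21.5 to 55.1), 9 of 32 (28.1%, 13.7 to 46.7) and 12 of 22 cells (54.5%, 32.2 to 75.6), and 10 TPM in 7, 8 and 7 cells. WT thus had the highest share of positive cells and R9 of ending 1 the highest mean (102.0 ± 298.6 TPM, with 20.5 ± 44.2 TPM in R9 cells without an ending and 52.1 ± 127.7 TPM in WT), within the spread over cells.

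Il1rap, the accessory chain of the interleukin 1 receptor (chromosome 16, 26581704 to 26730117, plus strand), stood above 1 TPM in 1 of the 35 R9 cells of ending 1, 8 of 32 R9 cells lacking an ending (25%, 11.5 to 43.4) and 0 of 22 WT cells. The single cell of ending 1 had 293.1 TPM and held 99.8% of that set's sum. The 8 cells without an ending lay between 10.3 and 147.1 TPM. The count of 0 in WT allows a share of cells with a listed value of up to 13.6% by the limit of 3 counts of the total, and the exact interval runs up to 15.4%. Means were 8.39 ± 49.5, 12.6 ± 31.8 and 0 TPM.

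Il18rap, the accessory chain of the interleukin 18 receptor, follows Il18r1 on chromosome 1 (40515362 to 40551705, plus strand). The limit of 1 TPM was met by 4 of 35 R9 cells of ending 1 (11.4%, 3.2 to 26.7), 3 of 32 R9 cells lacking an ending (9.38%, 1.98 to 25) and 0 of 22 WT cells. In ending 1 the values were 375.4, 328.4, 1.85 and 1.12 TPM, and the 2 high cells held 99.4% of the sum. Without an ending they were 48.3, 41.2 and 34.1 TPM. Means were 20.2 ± 83.0, 3.86 ± 12.3 and 0 TPM.

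Both R9 series thus held cells with each accessory chain and no WT cell did. At 1 TPM the Il1rap intervals of R9 without an ending (11.5 to 43.4) and of WT (0 to 15.4) overlapped, as did those for Il18rap.

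**Figure D1:**
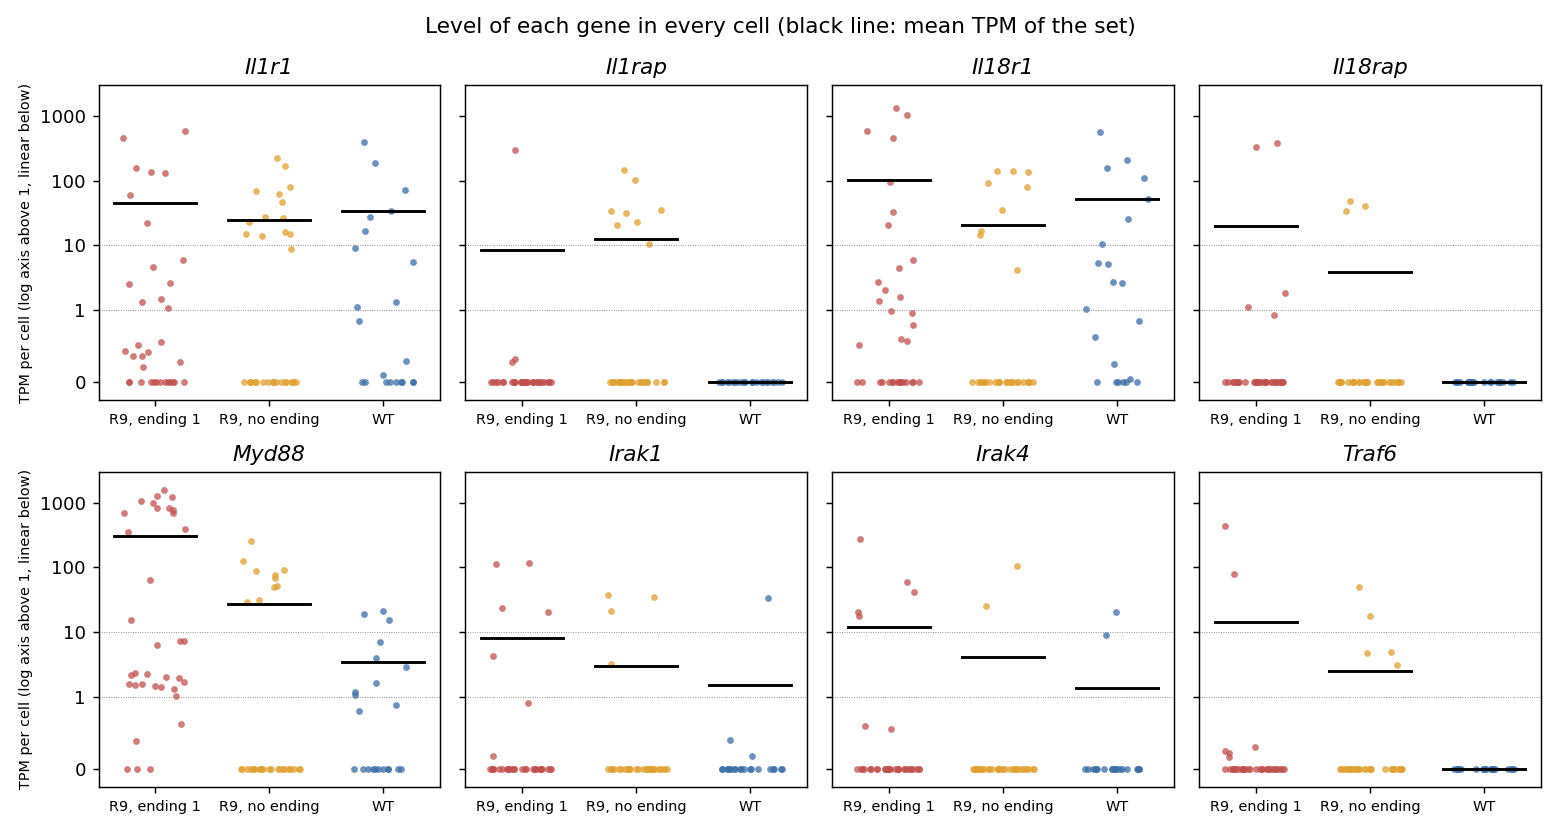
Level of the 8 genes in every cell, in TPM on an axis that is logarithmic above 1 and linear below, for R9 cells of ending 1 (35), R9 cells without an ending (32) and WT cells (22). Points are cells, black lines are mean TPM and dotted lines mark 1 and 10 TPM; Myd88 has 12 points above 100 TPM in R9 cells of ending 1, 2 for R9 without an ending and 0 in WT.

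Myd88, the adaptor, lies on chromosome 9 (119335934 to 119341411, minus strand). Its lowest, median and highest levels were 0, 2.31 and 1583 TPM in R9 cells of ending 1, 0, 0 and 256.7 TPM in R9 cells without an ending, and 0, 0.40 and 21.2 TPM in WT cells. The 12 highest R9 cells of ending 1 and the 2 highest without an ending exceeded 100 TPM, a level that no WT cell reached. In 10 R9 cells without an ending Myd88 was above 0, and all 10 lay at 29.5 TPM or more, above the highest WT cell after columns were averaged. That order depends on the averaging. WT column 31-1 had 37.9 TPM before it was averaged with column 31-2, which was at 0 (r 0.844).

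At 1 TPM, Myd88 was seen in 30 of 35 R9 cells of ending 1 (85.7%, 69.7 to 95.2), 10 of 32 R9 cells lacking an ending (31.2%, 16.1 to 50) and 9 of 22 WT cells (40.9%, 20.7 to 63.6). The interval of ending 1 lay above the other two. At 10 TPM the counts were 14 (40%, 23.9 to 57.9), 10 (31.2%, 16.1 to 50) and 3 (13.6%, 2.91 to 34.9), with intervals that overlapped. The difference between the limits is the 16 R9 cells of ending 1 and 6 WT cells that lay between 1 and 10 TPM, where R9 cells without an ending had 0.

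Myd88 shares 290 exonic bases (11.3% of its exonic length) with Acaa1a, a peroxisomal thiolase gene on the opposite strand, and without a stated strand setting reads from the 2 genes cannot be told apart there. Acaa1a averaged 158.1 TPM in R9 cells of ending 1, 18.2 TPM in R9 cells without an ending and 877.3 TPM in WT cells, where 1 cell held 94.2% of the sum. In 6 of the 12 and 1 of the 2 R9 cells with Myd88 at 100 TPM or more, Acaa1a was listed at 0. In WT, all 3 cells with Myd88 at 10 TPM or more had Acaa1a at 10 TPM or more too.

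**Figure D2:**
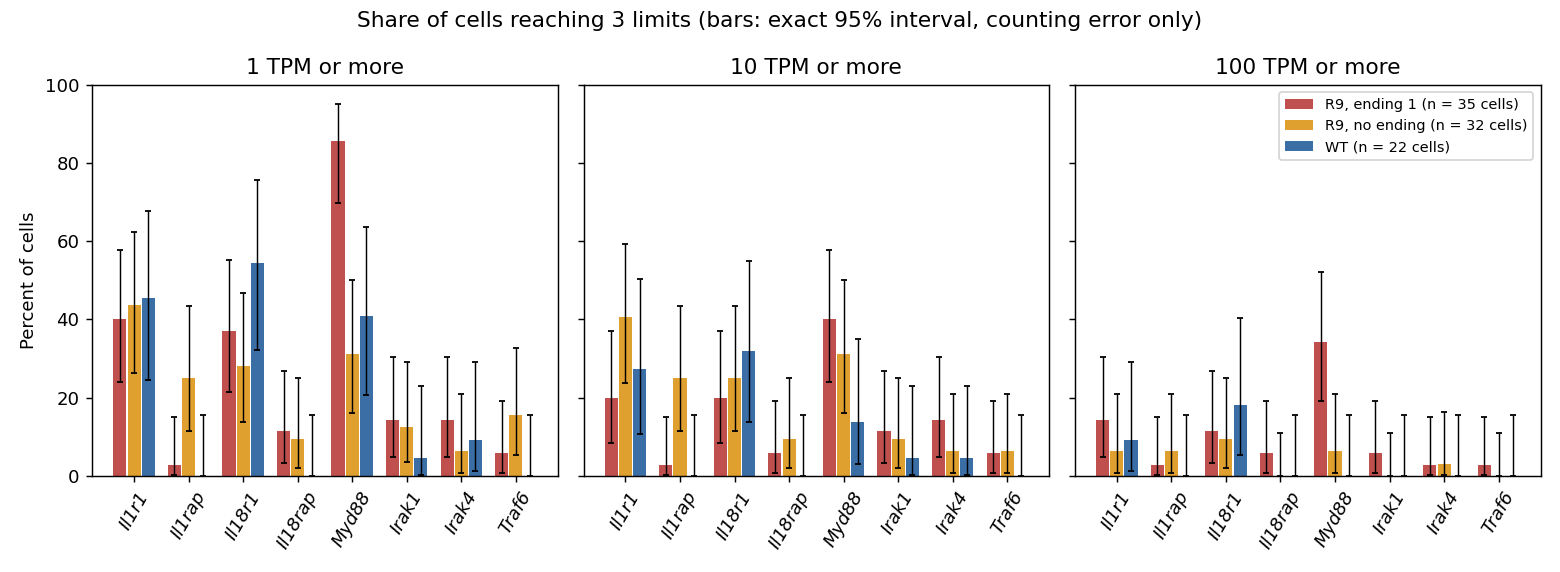
Percent of cells in which each gene reached 1, 10 or 100 TPM, with exact 95% intervals (counting error only), for R9 cells of ending 1, R9 cells without an ending and WT cells. Myd88 in ending 1 is at 85.7% for 1 TPM and 40% for 10 TPM, while R9 cells without an ending are at 31.2% for both limits.

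**Figure D3:**
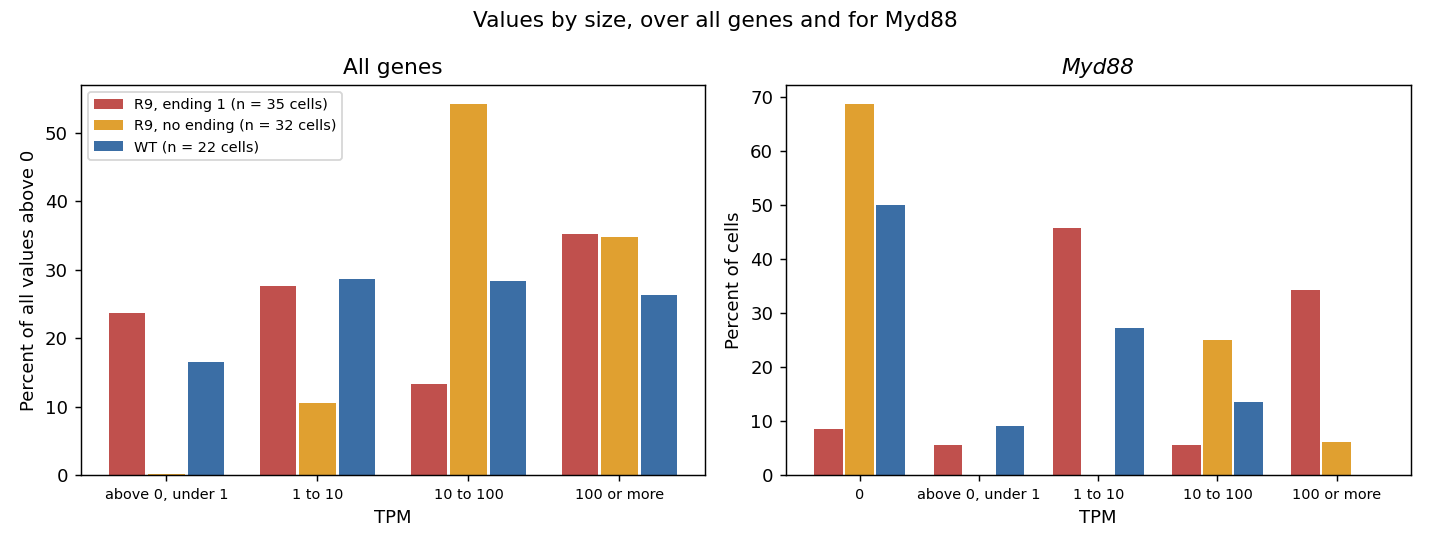
Left, percent of all values above 0 that fall in each range of TPM, over all genes and cells of a set; right, percent of cells with Myd88 in each range. R9 cells without an ending have 10.9% of values under 10 TPM and no Myd88 value between 1 and 10 TPM, against 16 cells of ending 1 and 6 WT cells.

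The kinases and the ligase were seen in few cells. Irak4, the first kinase of the Myddosome (chromosome 15, 94543643 to 94581815, plus strand), was at 1 TPM or above in 5 of 35 R9 cells of ending 1 (14.3%, 4.81 to 30.3), 2 of 32 R9 cells lacking an ending (6.25%, 0.77 to 20.8) and 2 of 22 WT cells (9.09%, 1.12 to 29.2). Its highest cells had 275.3, 105.9 and 20.7 TPM and its means were 11.9 ± 47.5, 4.10 ± 19.1 and 1.35 ± 4.73 TPM. It shares 395 exonic bases (7.87%) with Twf1, an actin-binding protein gene on the other strand. Twf1 was listed at 0 in 6 of the 7 R9 cells with Irak4 at 10 TPM or more, and was at 10 TPM or more in both WT cells with Irak4.

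Irak1, the kinase that hands the signal to Traf6 (chromosome X, 74013914 to 74023918, minus strand), reached 1 TPM in 5, 4 and 1 cells of R9 ending 1, R9 without an ending and WT. Its highest values were 118.6, 37.5 and 33.5 TPM, and in WT that 1 cell held 98.3% of the sum. The 5 cells of ending 1 had 3186 to 6042 genes at 1 TPM, and the WT cell had 5261. A part of the number of genes seen was not tested. Means were 8.01 ± 27.3, 3.04 ± 9.53 and 1.55 ± 7.13 TPM.

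Traf6, the ubiquitin ligase (chromosome 2, 101678429 to 101701669, plus strand), was at 1 TPM or above in 2 of 35 R9 cells of ending 1 (429.0 and 78.5 TPM), 5 of 32 R9 cells lacking an ending (highest 49.9 TPM) and 0 of 22 WT cells. At least 1 of Irak4, Irak1 and Traf6 was seen in 10, 11 and 2 cells of the 3 sets.

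Because TPM is scaled per transcript length, the genes can be ordered within a set. In R9 cells of ending 1 the mean level was highest for Myd88 (309.4 TPM), followed by Il18r1 (102.0 TPM) and Il1r1 (44.7 TPM), and lowest for Irak1 (8.01 TPM). In R9 cells without an ending Myd88 (27.2 TPM), Il1r1 (25.02 TPM) and Il18r1 (20.5 TPM) lay close together. In WT cells Il18r1 (52.1 TPM) and Il1r1 (34.1 TPM) came before Myd88 (3.43 TPM), Irak1 (1.55 TPM) and Irak4 (1.35 TPM). Neighbours in each order lay within the SD over cells.

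The difference between groups was taken as the log2 ratio of (mean TPM + 1) and called at 2-fold. For R9 over WT, 6 of 8 members were called higher and 0 lower, where 43% of 10691 genes tested were called higher and 21.3% lower. Of those 6, 3 were listed at 0 in WT and have no fold. Of the 5 members above 0 in both groups, 3 were called higher, where 39.5% of 9453 such genes were, and 0 lower, where 20.1% were. Their median ratio was 1.38, beside 0.52 over all such genes.

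Each R9 series was then set against WT on its own. R9 cells of ending 1 had 6 members higher and 0 lower (background 48.8% higher and 20.4% lower), and R9 cells without an ending had 5 higher and 1 lower (26.6% and 44.5%). Of the 5 members above 0 in both sets, 3 were higher and 0 lower for ending 1 (47.6% and 17.5% of such genes), and 2 higher and 1 lower without an ending (25.3% and 38.9%). These 5 had medians of 1.82 for ending 1 and 0.66 without an ending, beside 0.89 and -0.44 over all genes above 0 in both sets. The 2 tables were normalized separately, so each of these ratios is a level set across tables.

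For Myd88 the log2 ratio was 5.31 for R9 over WT, 6.13 for ending 1 over WT and 2.67 for R9 cells without an ending over WT. The median of all genes tested lay at 0.62, 0.94 and -0.67, and relative to it Myd88 stood at 4.69, 5.19 and 3.34. Of all genes tested, 1.21%, 0.356% and 8.23% had a ratio as high or higher. With the highest cell of each set left out, Myd88 had 5.43, 6.25 and 2.54. By the mean of log2 values its ratio was 2.07 for R9 over WT and 3.27 for ending 1 over WT. For R9 cells without an ending over WT it was 0.77 by that measure, within 2-fold. Scaled by 431 genes seen in most cells, Myd88 had 2.94 instead of 5.31 for R9 over WT and stayed called higher. Under that scaling the median of all genes for R9 over WT was 0.24 instead of 0.62, and 53.5% instead of 66.8% of all calls were on the higher side.

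The other ratios were smaller. Il1r1 had 0.05 for R9 over WT, 0.38 for ending 1 and -0.43 without an ending, each within 2-fold and on the side of 0 that the median of all genes took in the series. Il18r1 had 0.27, 0.96 and -1.30, so it was called lower in R9 cells without an ending, and -0.64 relative to the median there. Without the highest cells it had -0.70 and was not called. Irak1 had 1.38, 1.82 and 0.66, and Irak4 had 1.96, 2.45 and 1.12. These last rest on 1 or 2 WT cells, joined columns 29-1 and 29-2 for both genes and column 2-2 for Irak4. In these 2 cells 5261 and 7518 genes reached 1 TPM. Without cells over 4000 genes, Irak1 had 2.20 for R9 over WT, and Irak4 was at 0 in the remaining WT cells.

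**Figure D4:**
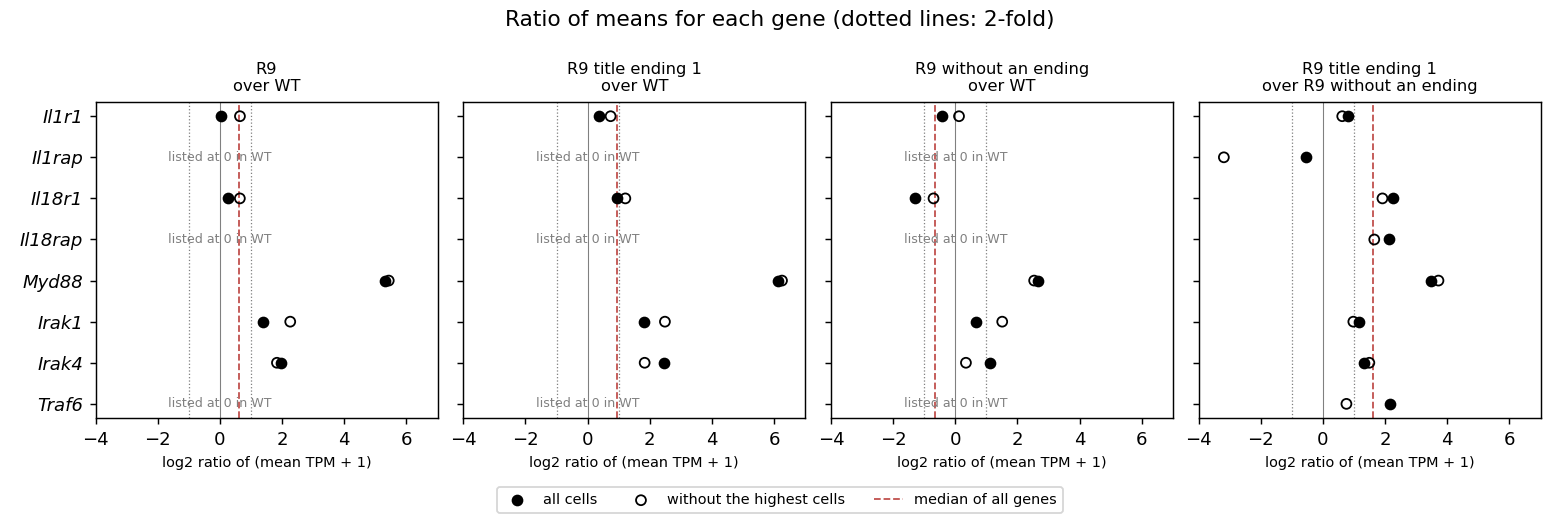
Log2 ratio of (mean TPM + 1) for each gene in 4 comparisons, with all cells (filled) and without the highest cell of each gene in each set (open); the dashed line is the median of all genes and dotted lines mark 2-fold. Myd88 lies at 5.31, 6.13, 2.67 and 3.46 with all cells, right of the dashed line in each panel, and genes listed at 0 in WT have no point.

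Within R9, the series of ending 1 was set against the series without an ending, and all values came from 1 table. Of the 8 members, 6 were called higher and 0 lower, where 64.9% of 10321 genes were called higher and 16.1% lower, so the members' count lay near that of all genes. All 8 were above 0 in both series, as were genes of which 62.1% were higher and 14.4% lower. Their median ratio was 1.73, beside 1.51 over all genes above 0 in both. Myd88 had the highest at 3.46 (2.88 scaled by the 431 common genes), followed by Il18r1 at 2.26, Traf6 at 2.15, Il18rap at 2.13, Irak4 at 1.33 and Irak1 at 1.16. Il1r1 had 0.81 and Il1rap -0.54, so 4 of the 8 lay under the median of all genes tested (1.61).

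Single cells set part of these ratios. Without the highest cell of each set, Il1rap had -3.19 and Traf6 0.76, while Myd88 had 3.72. By the mean of log2 values Traf6 had -0.066, and in cells with 1500 to 3000 genes Irak1 had -1.99.

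A rule on the share of cells gave fewer calls. At a difference of 25 percentage points in cells at 1 TPM, 0 of 8 members were called for R9 against WT (background 1.66% higher, 1.08% lower). For ending 1 against WT only Myd88 was called, 44.8 points higher (6.52% higher, 1.1% lower). For R9 cells without an ending against WT, Il1rap was 25 points higher and Il18r1 26.4 points lower (3.19% and 5.9%). For ending 1 against R9 without an ending only Myd88 was called, 54.5 points higher (12.5% higher, 3.2% lower). With cells counted at 10 TPM, that last difference was 8.75 points and no member was called (3.42% higher, 5.88% lower), and Myd88 alone was called for ending 1 against WT, 26.4 points higher (2.3% higher, 0.798% lower). For R9 cells without an ending against WT, Il1rap kept its 25 points at 10 TPM, while the difference of Il18r1 was -6.82 points and not called (6.87% higher, 1.71% lower).

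A working receptor needs its 2 chains in 1 cell, and transcripts of both were seldom seen together. Il1r1 and Il1rap were both at 1 TPM in 0 of the 35 R9 cells of ending 1, 4 of 32 R9 cells lacking an ending (12.5%, 3.51 to 29) and 0 of 22 WT cells, which by the limit of 3 counts allows shares of up to 8.57% in ending 1 and 13.6% in WT. Il18r1 and Il18rap were both seen in 3 of 35 (8.57%, 1.80 to 23.1), 1 of 32 (3.12%, 0.08 to 16.2) and 0 of 22 cells. Over all R9 cells each pair was seen in 4 of 67 (5.97%, 1.65 to 14.6). These are shares of cells with listed values, and a listed 0 in one chain hides a pair.

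Il1r1 and Il18r1, the 2 cytokine-binding chains, were seen together in 5 of 35 R9 cells of ending 1 (14.3%, 4.81 to 30.3), 4 of 32 R9 cells lacking an ending (12.5%, 3.51 to 29) and 7 of 22 WT cells (31.8%, 13.9 to 54.9). At least 1 of them was seen in 22, 19 and 15 cells, most cells of each set. Of those, 20, 9 and 5 also had Myd88 at 1 TPM. At 10 TPM the same counts were 12, 17 and 9 cells with a chain, and 4, 9 and 1 of them with Myd88. The set order therefore turned with the limit.

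Complete sets of transcripts were rarer. Il1r1, Il1rap and Myd88 were together in 0, 2 and 0 cells, and Il18r1, Il18rap and Myd88 in 3, 0 and 0 cells. Cells had a median of 2, 2 and 1 of the 8 members at 1 TPM, with at most 5, 4 and 3. None of the members was seen in 1 R9 cell of ending 1, 6 R9 cells without an ending and 3 WT cells.

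Some cells, chosen after their values were seen, show how the chains were spread. In the R9 cell titled 31-1, Il1r1 (578.0 TPM) and Il18r1 (1339 TPM) were both at their highest, beside Il18rap at 1.12 TPM and Myd88 at 2.21 TPM. In cell 32-1 Il18r1 was at 1022 TPM with Il1rap at 293.1 TPM, while Il18rap was listed at 0. Cell 20-1 had Il18rap at 328.4 TPM with Il18r1 listed at 0. The R9 cell titled 11, without an ending, had Il1r1 (171.0 TPM), Il1rap (101.3 TPM), Myd88 (126.7 TPM) and Traf6 (49.9 TPM) together.

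**Figure D5:**
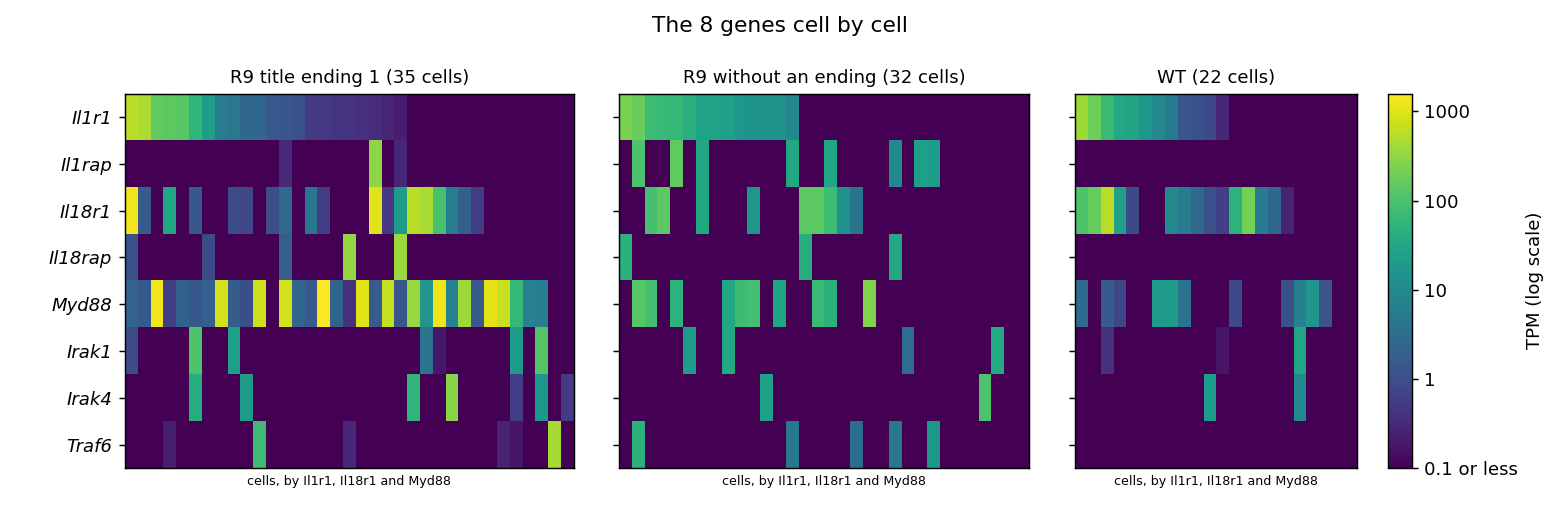
The 8 genes (rows) in every cell (columns) of R9 ending 1, R9 without an ending and WT, coloured by TPM on a log scale, with cells ordered by Il1r1, then Il18r1, then Myd88 within a set. Values of 0.1 TPM or less share 1 colour; the rows of Il1rap, Il18rap and Traf6 are empty in WT, and the Myd88 row is the fullest in ending 1.

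WT columns joined into 1 cell are compared here by the level of each member. No label says that they are repeats of 1 cell, and column 16-2 was joined to columns 32 and 32-2 across title numbers. In 8 pairs of joined columns that carried the same cell number, a member was at 1 TPM in both columns 8 times, with levels 1.00-fold to 1.25-fold apart. It was at 1 TPM in 1 column only 7 times, at 1.61 to 37.9 TPM, and 5 of these were under 10 TPM. In the other 49 of the pairings it was seen in neither. The pairs were joined because their values were alike, so the close levels are a description and not a separate check.

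Likeness of pattern was measured for members seen in at least 20% of the cells of every set, which left Il1r1, Il18r1 and Myd88, against 2553 genes that met the same limit. As the mean over the 3 sets (35, 32 and 22 cells) of Spearman's rho across cells, the genes most like Il1r1 were Ccr6 (0.54; 0.14, 0.67 and 0.79 in the sets in turn) and Cd83 (0.50; 0.33, 0.43 and 0.75). For Il18r1 they were Snrpd2 (0.42, 0.57 and 0.31) and Myo1f (0.49, 0.40 and 0.39), with a mean of 0.43 each. For Myd88 they were Taf9 (0.44; 0.12, 0.51 and 0.68) and Slc35a4 (0.43; 0.23, 0.23 and 0.83). These are the highest of many values and cells of a set share a table and low values, so they are descriptions only. Il1r1 and Il18r1 had 0.19 with each other, Il1r1 and Myd88 0.10 (-0.16, 0.34 and 0.13 by set), and Il18r1 and Myd88 0.02.

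Il1r1, Il18r1 and Il18rap belong to a row of receptor genes on the plus strand of chromosome 1, in the order Il1r2, Il1r1, Il1rl2, Il1rl1, Il18r1, Il18rap. Il1r2, a decoy receptor that binds interleukin 1 without signalling, was at 1 TPM in 7 of the 35 R9 cells of ending 1 (mean 96.0 TPM) and listed at 0 in every R9 cell without an ending and every WT cell. Il1rl2 (1 WT cell) and Il1rl1, the interleukin 33 receptor (no cell at 1 TPM), were nearly empty. Of these 6 neighbours, Il1r1 and Il18r1 were seen in the most cells.

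The rest of the pathway was taken from 8 lists with 91 genes, all of which were in the tables. Of the 54 that were above 0 in both groups and had a mean of 1 TPM in either, 19 were higher and 9 lower in R9 than in WT by 2-fold, where 39.5% and 20.1% of all such genes were. Without the highest cell of each gene in each set the counts were 27 and 6. By that rule 5040 of all 10691 genes tested were higher and 742 lower, against 4594 and 2282 with all cells. The 10691 include genes at 0 in 1 group, unlike the 54 and the list counts without the highest cells given below. Leaving out the highest cells takes out 1 of 22 WT cells but 1 of 67 R9 cells. The median of all genes tested for R9 over WT went from 0.62 to 0.88. For R9 ending 1 over R9 without an ending 37 of 53 were higher and 6 lower, where 62.1% and 14.4% of all such genes were. Medians by list for R9 over WT ran between -1.93 for inflammasome genes and 0.90 for ligands, beside 0.52 over all genes.

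Ligand transcripts were scarce: Il1b and Il1rn, the receptor antagonist, were listed at 0 in every cell. Il18 was seen in 2, 1 and 3 cells of R9 ending 1, R9 without an ending and WT, with means of 11.1, 1.02 and 61.4 TPM. Among the other receptors, Sigirr, which restrains this family, had 56.8, 11.3 and 27.6 TPM, each mean set mostly by 1 cell. Of 15 Toll-like receptors and adaptors, 10 were under 1 TPM in every set, and Ticam1, the adaptor that works without Myd88, had 26.2, 9.49 and 35.4 TPM.

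Of the genes that act beside and below the Myddosome, the 6 with the highest means are named, and each was seen in more cells than Irak1, Irak4 or Traf6. Irak2, a kinase of the same family, was at 1 TPM in 16, 19 and 10 cells (73.8, 26.9 and 67.2 TPM). Ube2v1, a partner of the conjugating enzyme Ube2n that Traf6 uses, was in 34, 28 and 17 cells (337.1, 115.4 and 131.9 TPM), and Ube2n in 25, 24 and 20 (147.1, 35.8 and 113.5 TPM). Tifa, which helps Traf6 to assemble, had 179.8, 19.6 and 108.8 TPM, Peli1, a ligase for the kinases, 116.9, 27.6 and 73.6 TPM, and Traf2 154.6, 39.4 and 159.5 TPM. Of the 12 genes of this list above 0 in both groups, 4 were higher and 0 lower in R9 (39.5% and 20.1% of all such genes), and the 6 named here were within 2-fold. Without the highest cells 7 were higher, Peli1 (1.82) and Ube2v1 (1.15) among them. By that rule 5040 of all 10691 genes tested were higher, and the median of all genes tested was 0.88.

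In the TAK1 and IKK complexes, Tab2, an adaptor of TAK1, had 56.5, 22.6 and 5.70 TPM (R9 over WT 2.62), in 11, 16 and 7 cells. The IKK subunits had ratios of -0.57 for Chuk, -0.95 for Ikbkb and 0.39 for Ikbkg, but 1 WT cell held 97.1% of the WT sum of Ikbkb and 100% of that of Ikbkg. Without the highest cells they had -1.04, 2.05 and 3.13, and Tab2 had 3.19, beside a median of 0.88 over all genes tested (0.62 with all cells). Among outputs, Nfkbia, the inhibitor that NF-kappa B itself induces, was in 35, 31 and 22 cells (1027, 476.9 and 700.3 TPM, ratio 0.13). Rela, the p65 subunit, had 190.7, 35.3 and 20.4 TPM (2.46), with ratios over WT of 3.17 for ending 1 and 0.76 without an ending. Of 21 genes of the output list, 9 were higher and 4 lower in R9 (39.5% and 20.1% of all genes above 0 in both). Without the highest cells 12 were higher and 2 lower, where 5040 and 742 of all 10691 genes tested were.

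Of the inflammasome and processing genes, which ready interleukin 1 beta and interleukin 18 for release, 4 of 5 were lower in R9 and 0 higher, where 20.1% and 39.5% of all such genes were. Without the highest cells 2 of 5 were lower, where 742 of all 10691 genes tested were. Pycard, the adaptor, had 136.5, 25.2 and 251.9 TPM (-1.58), and Casp1, the protease, had 172.4, 37.6 and 82.3 TPM (0.39). Gsdmd, the pore protein, had -2.38 and Aim2, a DNA sensor, -2.50, where 1 WT cell held 91.6% and 92.4% of the WT sum; without the highest cells they had -0.24 and -0.55, and Pycard -1.09.

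Cytokines that ILCs are known to make after interleukin 1 or 18 were mixed. Il22 was in 13, 8 and 6 cells (46.7, 43.6 and 16.7 TPM, ratio 1.38), Tnf in 16, 20 and 9 (69.1, 94.9 and 30.1 TPM, 1.41) and Csf2, which encodes GM-CSF, in 6, 4 and 4 (15.1, 21.4 and 10.8 TPM, 0.69). In WT 1 cell held 76.9%, 91.1% and 82.6% of the sums of Il22, Tnf and Csf2, and without the highest cells their ratios were 2.73, 3.93 and 2.16. Lta, a lymphotoxin gene, had 99.2, 575.3 and 307.8 TPM (0.09), with opposite signs for the series (-1.62 for ending 1 and 0.90 without an ending over WT). Ltb was seen in every cell. Il17a and Ifng were listed at 0 in all cells.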

How the data were processed

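Expression was measured in single sorted cells, 67 R9 columns and 31 WT columns. Per the labels' protocols, the Discover-sc WTA Kit V2 gave cDNA and the TruePrep DNA Library Prep Kit V2 gave libraries. The submitters' processing notes name HISAT2 2.1.0, StringTie 1.3.4, SAMtools 0.1.19, bcl2fastq and the build mm10. The authors deposited TPM in 2 tables, 1 a group, normalized separately. TPM keeps no depth, so depth per cell is unknown. Strand settings are not given in the sources used here.

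WT columns were averaged where Pearson's r of log2(TPM + 1) over genes at 1 TPM in both passed 0.8 (10 pairs, r 0.844 to 0.995, next highest 0.738). That they are 1 cell is an assumption. Genes whose mean reached 1 TPM in at least 1 set were compared by log2((mean TPM + 1)/(mean TPM + 1)), called at 2-fold, and by shares of cells, called at 25 percentage points. The pseudocount understates differences of low genes. The ratio step was tested on simulated data only. That test does not show how firm a ratio is for genes seen in few cells. Nor does it for genes whose SD over cells is larger than the mean, as for the members here.

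All 8 members are named. From each pathway list up to 6 genes with a mean of 10 TPM in any set are named, and genes outside this are said to be so. Members and lists were chosen with earlier results of these data known. Older symbols were matched through RefSeq (Il1f6 for Il36a, for example). Coordinates are from GENCODE on GRCm38, and sequences from RefSeq on GRCm38.p6. Work was done in Python 3.11.15 with pandas 2.3.3, numpy 2.4.6, matplotlib 3.10.9 and scipy 1.17.1.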

Additional observations from a re-analysis of the deposited data

How the results depend on the processing

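No paired analysis was possible because no label pairs R9 with WT cells and each group was 1 sample. Of 119 alternative values of the members' ratios, 115 moved by less than the SD of log2 values over R9 cells (1.59 for Traf6 to 3.74 for Myd88). This limit is wide and is not the error of a mean, so the count does not show that the ratios are firm. Myd88 at 2.07 instead of 5.31 fell within it. Of the 115, 10 were ratios of Il1r1 or Il18r1, within 2-fold in the main setting, that took the opposite sign. Among them Il18r1 for R9 over WT went to -1.30 with R9 cells without an ending only. Another 2 moved by more, and 2 called ratios turned. For ending 1 over R9 without an ending, Traf6 had -0.066 by the mean of log2 values and Irak1 -1.99 in cells with 1500 to 3000 genes. Myd88 ranged between 2.07 and 6.13 for R9 over WT and between 2.50 and 3.78 for ending 1 over R9 without an ending. The cause of the changes that follow was not tested unless the setting itself gives it (fewer cells or genes). For R9 over WT, members called higher numbered 6, but 3 with a pseudocount of 10 TPM, 1 by the mean of log2 values and 3 among genes above 0 in both sets (added after seeing the data); 1 was called lower with R9 cells without an ending only. All genes called higher and lower numbered 4594 and 2282, but 2331 and 1163 with a pseudocount of 10 TPM, 1061 and 371 by the mean of log2 values, 2652 and 4434 with R9 cells without an ending only, 2836 and 1493 among genes with a mean of 10 TPM, and 742 lower without the highest cells. For ending 1 over R9 without an ending, members higher were 3 with a pseudocount of 10 TPM and 1 by the mean of log2 values, and 1 member was lower by the mean of log2 values, scaled by common genes, without the highest cells and in cells with 1500 to 3000 genes. By share of cells, 1 member was higher in R9 with ending 1 only, with R9 cells without an ending only and with WT columns of ending 1 only, 1 was lower with R9 cells without an ending only, and 0 were higher for ending 1 over R9 without an ending at 10 TPM (added after seeing the data). Il1r1 with Il1rap was at 0% of R9 cells with ending 1 only. Depth is unknown, the joined WT columns are an assumption, and 1 or 2 cells hold most of the level of Il1rap, Il18rap, Irak1, Irak4 and Traf6.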

Other observations

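Irak3, a kinase-dead member of the family that restrains Irak1 and Irak4, falls outside the rule for named genes and was chosen after its values were seen. It had means of 69.3 ± 190.2 TPM in R9 cells of ending 1, 12.5 ± 35.9 TPM in R9 cells without an ending and 2.78 ± 10.01 TPM in WT cells, in 10, 5 and 2 cells at 1 TPM. The log2 ratio was 3.51 for R9 over WT, 4.22 for ending 1 over WT and 1.83 for R9 cells without an ending over WT.

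Fos and Jun, the immediate early genes that form AP-1, lay on the other side than Myd88 between the 2 R9 series. Fos had 4.47 TPM in R9 cells of ending 1, 824.6 TPM in R9 cells without an ending and 69.6 TPM in WT cells, and Jun had 38.9, 225.4 and 41.2 TPM. For ending 1 over R9 without an ending the log2 ratios were -7.24 and -2.50. Map2k3, a kinase of the p38 pathway, had 32.6, 23.8 and 755.7 TPM, and 1 WT cell held 89.6% of the WT sum.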
